A study of Mus musculus with 24 samples.

Results

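The nuclear-encoded genes of the respiratory chain were examined in mouse kidney. Rows of the deposited count table were taken by symbol (Nduf, Uqcr, Atp5, Sdha to Sdhd, Cyc1 and Cox4 to Cox8). Of 113 matching rows, 14 were left out because their symbol ends in -ps, and 8 because their mean TPM (a length-scaled share of the library, as deposited) was below 1. The remaining 91 genes, of 55487 in the table, were 47 for complex I, 4 for complex II, 9 for complex III, 14 for complex IV and 17 for complex V. The assignment follows the symbol, so that complex I here includes 8 Ndufaf assembly factors as well as Ndufa4 and Ndufa4l2, which act with complex IV. The members nearest above the level of 1 TPM were Ndufa4l2 at 4.67 and Cox6b2 at 7.62 mean TPM, and the rows nearest below it were Cox4i2 at 0.623 and Cox6a2 at 0.405.

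The kidneys came from male mice on the B6 background with X-linked Alport syndrome (XLAS), a disease of the glomerular basement membrane modelled here with Col4a5. Every mouse carried that disease, and the groups differed in Nbl1, which encodes a secreted antagonist of bone morphogenetic proteins: 13 mice were HET and 11 were WT. Kidneys were taken at 15 weeks of age and sequenced as bulk mRNA in 2 batches, with 6 HET and 6 WT libraries in batch 1 and 7 HET and 5 WT libraries in batch 2. There was no group without XLAS, so none of the comparisons concerns the disease itself. The labels give 1 library per title and name no shared animal; p-values measure the spread between these libraries. Libraries are called by genotype and replicate, with HET replicates 1 to 6 and WT replicates 1 to 6 in batch 1.

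The respiratory chain passes electrons from NADH through complex I and from succinate through complex II to coenzyme Q, then through complex III and cytochrome c to complex IV, which reduces oxygen. Complexes I, III and IV pump protons across the inner mitochondrial membrane, and complex V, the ATP synthase, uses the return flow to make ATP. Most subunits are encoded in the nucleus, and the mitochondrial genome supplies the rest of complexes I, III, IV and V. Proximal tubule and thick limb cells of the kidney are rich in mitochondria, because the reabsorption of salt and solutes is driven by ATP. The coactivator PGC-1alpha (Ppargc1a) and the factors NRF1, GABPA, ERR-alpha and YY1 are known regulators of these genes.

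The tissue label was checked on the summed level of 15 proximal tubule genes, 28398 to 35766 CPM (counts scaled to library size) over the libraries. Libraries held 29551543 to 33020033 counts in batch 1 and 36380502 to 50746817 in batch 2. The Rn7s1, Rn7s2 and Rn7sk RNAs took 46.7 to 51.5% of all TPM in batch 1 and 0.0335 to 0.122% in batch 2, so TPM levels were read within a batch. The respiratory chain genes together took 1.34 to 1.53% of counts in batch 1 and 1.15 to 1.44% in batch 2. Nbl1 itself did not follow the genotype in every library. In batch 1 Nbl1 ran from 3.85 through a median of 4.16 to 9.24 CPM in HET kidneys and from 3.62 through 7.19 to 7.77 CPM in WT kidneys, with the library labelled HET replicate 6 highest of all and the library labelled WT replicate 2 lowest. WT replicate 1 stood at 5.41 CPM, between the other libraries of the 2 labels. In batch 2 Nbl1 ran from 4.22 through 4.94 to 7.81 CPM in HET kidneys, and it was 6.99, 9.75, 10.9, 11.2 and 15.1 CPM in WT kidneys. The genotype comparisons below were therefore also run without HET replicate 6, WT replicate 1 and WT replicate 2 of batch 1.

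The promoters of 5 of the genes on which the later results turn are shown here, from 250 bases before to 50 bases after the transcription start, in the direction of transcription (RefSeq, GRCm38.p6). Capitals mark the letters searched for NRF1 with 1 free base (GCGCANGCG), for ETS factors such as GABPA (CCGGAAG) and for YY1 (AANATGGCG), on either strand. Sdha lies on chromosome 13 (chr13:74350191-74350490, minus strand), Uqcrfs1 on the same chromosome (chr13:30545267-30545566, minus strand), Ndufs3 on chromosome 2 (chr2:90904672-90904971, minus strand), and Atp5b and Ndufa12 on chromosome 10 (chr10:128083057-128083356 and chr10:94198785-94199084, both plus strand).
Sdha: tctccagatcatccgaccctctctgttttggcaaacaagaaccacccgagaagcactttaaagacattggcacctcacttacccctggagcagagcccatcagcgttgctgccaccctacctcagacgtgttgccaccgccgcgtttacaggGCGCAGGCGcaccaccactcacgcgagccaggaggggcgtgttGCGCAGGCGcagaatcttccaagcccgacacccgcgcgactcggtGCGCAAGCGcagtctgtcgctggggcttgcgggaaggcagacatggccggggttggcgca
Ndufs3: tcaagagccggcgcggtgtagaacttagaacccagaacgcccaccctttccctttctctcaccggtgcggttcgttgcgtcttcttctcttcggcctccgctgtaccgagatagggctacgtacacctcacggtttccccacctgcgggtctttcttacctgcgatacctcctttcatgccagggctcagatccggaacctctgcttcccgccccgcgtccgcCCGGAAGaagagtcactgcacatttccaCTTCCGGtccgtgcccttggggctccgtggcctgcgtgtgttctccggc
Atp5b: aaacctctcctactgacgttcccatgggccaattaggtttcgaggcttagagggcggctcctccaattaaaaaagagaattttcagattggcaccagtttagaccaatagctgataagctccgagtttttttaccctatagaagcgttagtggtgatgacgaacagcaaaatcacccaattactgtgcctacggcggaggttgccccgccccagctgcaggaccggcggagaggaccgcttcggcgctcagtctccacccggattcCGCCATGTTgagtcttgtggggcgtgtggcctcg
Uqcrfs1: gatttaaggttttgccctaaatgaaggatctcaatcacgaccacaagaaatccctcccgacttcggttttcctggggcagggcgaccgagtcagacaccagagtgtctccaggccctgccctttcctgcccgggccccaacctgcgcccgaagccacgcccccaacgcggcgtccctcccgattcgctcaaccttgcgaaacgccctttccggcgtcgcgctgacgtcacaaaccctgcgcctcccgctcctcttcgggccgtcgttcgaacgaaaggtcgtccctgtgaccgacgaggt
Ndufa12: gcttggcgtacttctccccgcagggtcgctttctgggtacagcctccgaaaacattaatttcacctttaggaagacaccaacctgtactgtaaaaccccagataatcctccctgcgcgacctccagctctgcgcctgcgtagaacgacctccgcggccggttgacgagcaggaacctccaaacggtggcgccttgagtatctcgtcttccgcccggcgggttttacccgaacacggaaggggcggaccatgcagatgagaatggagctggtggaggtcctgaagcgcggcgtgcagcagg
The Sdha promoter held the NRF1 letters 3 times, beginning at positions -98, -55 and -10 from the start, all on the strand of the gene. The Ndufs3 promoter held the ETS letters at -27 on its own strand and at +2 on the opposite strand. The Atp5b promoter held the YY1 letters on the opposite strand at +17. The Uqcrfs1 and Ndufa12 windows held none of these letters, which says only that they are not in these windows. The window of Ndufa10, also called in the later results but not shown, held none of them either. Uqcrc2, called as well, had no promoter in the RefSeq source.

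Across the gene family, 75 members had a promoter in the RefSeq table and 16 had none. The exact NRF1 letters (GCGCATGCG) stood in 13.3% of the members' promoters, against 1.95% of the promoters of 27025 genes. The form with 1 free base, which includes the exact one, stood in 29.3% against 7.03%. ETS letters stood in 25.3% against 9.93%, YY1 letters in 14.7% against 2.76%, and ERR letters (CAAGGTCA) in 5.33% against 1.76%. The Sp1 letters (GGGCGG), which are not in capitals above, stood in 45.3% against 38.2%. At least 1 of the NRF1, ETS, ERR or YY1 letters stood in 43 of 75 members' promoters, 57.3%, against 18.7% of all. By complex, the YY1 letters were found in 8 of 40 complex I promoters and 3 of 15 complex V promoters, and in 0 of 3, 0 of 5 and 0 of 12 promoters of complexes II, III and IV. These shares are descriptions of letters and carry no test.

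Levels differed by complex. The median gene of complex I had a mean of 88.0 TPM in batch 1, that of complex II 112, that of complex III 215, that of complex IV 306 and that of complex V 281. In batch 2 the same medians were 169, 244, 273, 436 and 489 TPM. Complexes IV and V stood above complexes I and II in both batches, and their own order changed between the batches. Complex V took 33.1% of the summed TPM of the 91 genes in batch 1 and 31.6% in batch 2, complex I took 28.8% and 30.5%, and complex II took 2.64% and 3.57%. With counts divided by annotated exonic length in place of the authors' length, complex V took 23.9% and 25.6% and complex I 31.1% and 32.0%, so the order of these 2 rests on the length used.

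**Figure D1:**
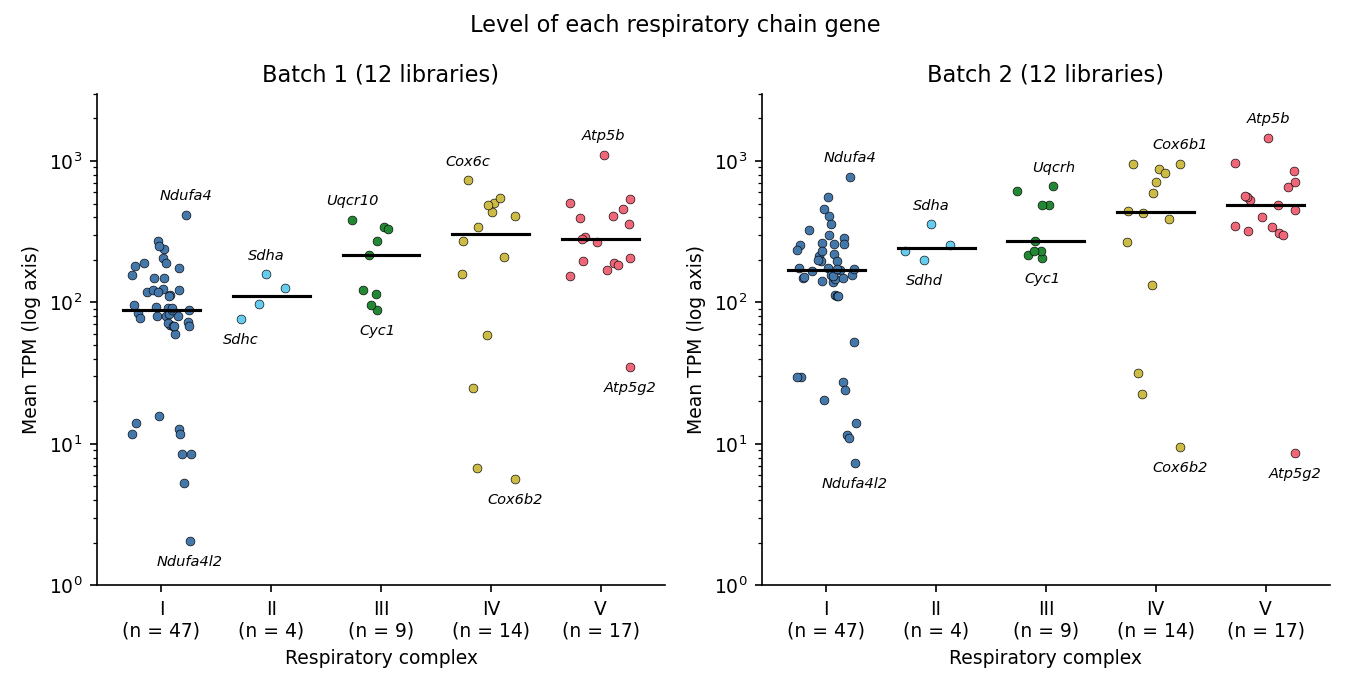
Mean TPM of each respiratory chain gene (1 point per gene, log axis) by complex, in the 12 libraries of each batch; bars mark the median gene. Complex I extends lowest, to Ndufa4l2 at 2.05 TPM in batch 1, and the ATP synthase gene Atp5b stands highest in both batches.

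Within complex I the core subunits of the peripheral arm, which carry the flavin and iron-sulfur clusters or frame them, had similar mean levels. In batch 1 Ndufs7 had 68.3 TPM, Ndufs1 had 71.4, Ndufs3 and Ndufv1 had 88.0, Ndufv2 had 91.5 and Ndufs8 had 95.6. In batch 2 Ndufs7 was again lowest at 111 TPM, and Ndufs1 had 155, Ndufs3 and Ndufv2 172, Ndufs8 174 and Ndufv1 197 TPM. The 8 Ndufaf genes, whose products help to assemble complex I and do not stay in it, were lower. They ran from Ndufaf5 at 5.33 to Ndufaf8 at 15.8 TPM in batch 1 and from 11.03 to 29.5 TPM in batch 2, and no Ndufaf gene reached the level of a core subunit. Ndufa4 was the highest gene under a complex I symbol at 417 and 776 TPM in the batches, and its paralogue Ndufa4l2 was the lowest at 2.05 and 7.29 TPM. The 2 genes thus differed 203-fold and 106-fold.

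In complex II, Sdha (the flavoprotein that oxidises succinate) had 158 and 356 mean TPM in batches 1 and 2. Sdhb (the iron-sulfur subunit) had 126 and 257 TPM. The membrane anchors Sdhc and Sdhd had 76.8 and 98.3 TPM in batch 1 and 232 and 201 TPM in batch 2, so that the order of the 2 anchors turned between batches. In complex III the small subunits Uqcr10 (383 and 609 TPM), Uqcr11 (344 and 488 TPM) and Uqcrh (331 and 663 TPM) stood above the large ones. The core proteins Uqcrc1 (115 and 231 TPM) and Uqcrc2 (96.6 and 273 TPM), the Rieske iron-sulfur protein Uqcrfs1 (123 and 216 TPM) and cytochrome c1, Cyc1 (89.1 and 208 TPM), were lower in both batches.

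Complex IV is the complex with most tissue isoforms, and the kidney libraries held chiefly the ubiquitous forms. Cox6c (730 and 954 TPM), Cox8a (543 and 823 TPM) and Cox6b1 (410 and 957 TPM) were among its highest genes. Cox8a exceeded its heart, muscle and brown fat isoform Cox8b 80.4-fold in batch 1 and 36.7-fold in batch 2. Cox7a2 exceeded the heart and muscle isoform Cox7a1 10.8-fold and 14.0-fold, and Cox6b1 exceeded the testis isoform Cox6b2 72.4-fold and 100.1-fold. The alternative isoforms Cox4i2 and Cox6a2 lay below the level for membership.

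In complex V the catalytic beta subunit Atp5b was the highest of all 91 genes, at 1105 mean TPM in batch 1 and 1454 in batch 2. The small membrane subunit Atp5md had 538 and 711 TPM. The 3 genes Atp5g1, Atp5g2 and Atp5g3 encode the same mature c subunit of the proton-driven ring. Atp5g3 led at 504 and 971 TPM, Atp5g1 had 197 and 320 TPM, and Atp5g2 had 34.7 and 8.62 TPM.

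Cox8b (chromosome 7, 140898945 to 140900446, GRCm38) varied most between libraries. Its coefficient of variation within batches was 95.9%, against a median of 7.99% for the respiratory chain genes and 11.1% for all genes tested. Cox8b ran from 0 to 4.90 CPM, and WT replicate 2 had 0 counts, which allows up to 0.0981 CPM at 3 counts. In the 12 libraries with the most transcript of Ucp1, the uncoupling protein of brown fat, Cox8b lay at 1.48 to 4.90 CPM and Ucp1 at 16.5 to 43.7 CPM. In the other 12 libraries Cox8b lay at 0 to 1.02 CPM and Ucp1 at 0 to 8.46 CPM. The same 12 libraries therefore had the most of both genes: HET replicates 4 to 9, WT replicate 1 and WT replicates 6 to 10. The brown fat gene Cidea ran with them, at 3.34 to 16.0 CPM against 0 to 2.80 CPM. The fat gene Adipoq stood at 3.98 to 16.2 CPM against 0.0582 to 3.82 CPM. Cox8a, by contrast, covered 177 to 270 CPM in the first 12 libraries and 199 to 271 CPM in the others. The summed CPM of 7 adipose markers ran from 23.3 to 195 in HET and 22.1 to 186 in WT kidneys of batch 1, and from 46.7 to 242 and 50.5 to 246 in batch 2. Skeletal and heart muscle markers, which the Cox8b and Cox7a1 isoforms also accompany, summed to 0.954 to 10.3 CPM over all libraries. The part of fat tissue in the Cox8b level was not tested, and in bulk tissue fewer cells of a type and less RNA per cell cannot be told apart.

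**Figure D2:**
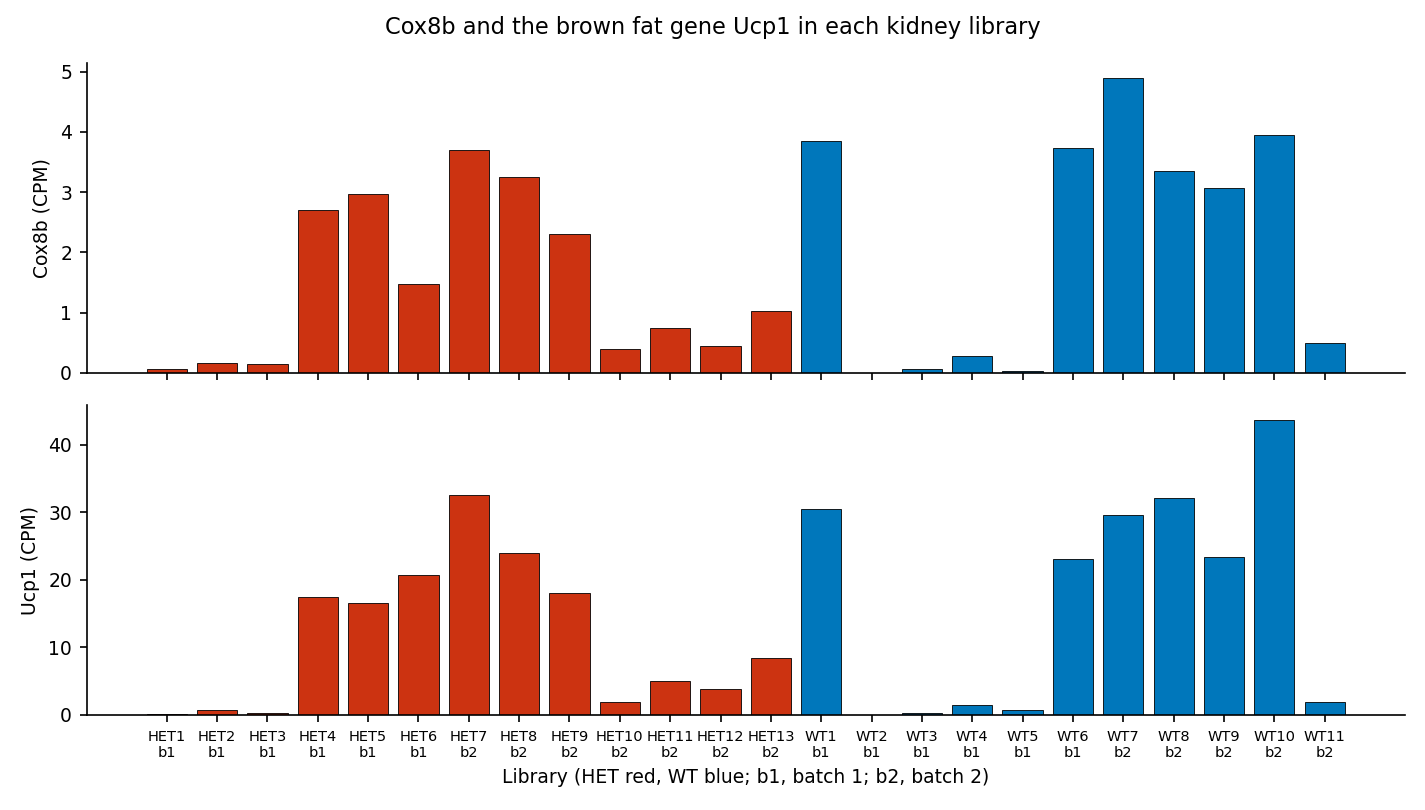
Cox8b (upper bars) and Ucp1 (lower bars) in CPM in each of the 24 kidney libraries, HET in red and WT in blue. Both genes are high in the same 12 libraries, where Cox8b is at 1.48 to 4.90 CPM.

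Cox7a1 followed as the second most variable gene, with a coefficient of variation of 25.4%, and Atp5g2 had 22.1%. Cox7a1 reached 11.1 CPM in WT replicate 1 and 2.81 to 6.86 CPM elsewhere. Cox7a1 covered 3.84 to 11.1 CPM in the 12 libraries rich in Ucp1 and 2.81 to 6.12 CPM in the others, so those ranges overlapped. The steadiest genes were Sdhc at 4.44%, Ndufv1 at 4.52% and Atp5a1, the alpha subunit of the synthase, at 4.67%. The median gene of complex II varied by 5.13%, of complex III by 6.73%, of complex I by 7.84%, of complex V by 8.18% and of complex IV by 8.96%.

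The 5 complexes shared their highest and lowest libraries. In batch 1 the summed CPM of each of the 5 complexes was lowest in HET replicate 1 among HET libraries and in WT replicate 4 among WT libraries. It was highest in WT replicate 1 for all 5 among WT libraries, and in HET replicate 2 for all but complex II among HET libraries. WT replicate 1 held the highest value of its 6 libraries for 75 of the 91 genes, 82.4%, against 21.3% of all genes tested. WT replicate 4 held the lowest for 65 genes, 71.4% against 15.5%. In batch 2 HET replicate 9 had the highest sum of every complex and HET replicate 7 the lowest among HET libraries, and WT replicate 11 had the highest among WT libraries, with the top value for 72 genes. The mitochondrially encoded share of counts was also highest of its group in HET replicate 2 (8.86%), WT replicate 1 (9.70%), HET replicate 9 (12.2%) and WT replicate 11 (11.5%). It was lowest of its group in WT replicate 4 (7.51%) and HET replicate 7 (9.18%). HET replicate 1 had 7.78%, above HET replicate 5 at 7.55%. The part of this share in the sums was not tested. Summed over all 91 genes, HET kidneys covered 12660 to 14346 CPM (median 13356) and WT kidneys 12507 to 14996 CPM (median 13441) in batch 1. In batch 2 HET kidneys covered 13195 to 15389 CPM (median 14046) and WT kidneys 12792 to 14043 CPM (median 12989). These ranges overlapped in both batches. WT replicate 1, the highest WT library of batch 1, was also one of the libraries whose Nbl1 level stood apart.

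The question the groups were set up for is whether 1 copy fewer of Nbl1 changes the kidney with XLAS. For the respiratory chain, no gene passed the test in the comparison of 13 HET with 11 WT kidneys (edgeR quasi-likelihood test with batch as a covariate, Benjamini-Hochberg adjusted p under 0.05 over 18339 genes, a share of 0.0% of all genes called). DESeq2 also called 0. At an unadjusted p under 0.05 there were 4 members, 4.4%, against 4.12% of all genes, by both tools. The median log2 difference of the members was 0.053 against 0.0098 for all genes, and 78 of 91 lay above the median of all genes (77 with library totals, where 31 differences were positive). Ndufb2, an accessory subunit of the membrane arm of complex I, had a log2 difference of 0.093 (SE 0.037, unadjusted p = 0.017, adjusted p = 0.997 in edgeR). The others were Ndufb11 at 0.092 (SE 0.038), the small synthase subunit Atp5mpl at 0.10 (SE 0.042) and the regulatory complex IV subunit Cox4i1 at 0.071 (SE 0.033), all with an adjusted p of 0.997 in edgeR. Without the 3 libraries whose Nbl1 level was doubted, 0 members were called and 21, 23.1%, had an unadjusted p under 0.05, against 5.11% of all genes. The number was also 21 without WT replicate 1 alone, where the median was 0.061. It was 1 without WT replicate 9, where the median was 0.034, and 1 without WT replicate 8, where the median was 0.025.

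The 2 batches did not show the same picture. In batch 1 there were 0 members called by edgeR and 0 by DESeq2 (0.0% of all genes in edgeR), and 0 with an unadjusted p under 0.05 by either tool, where 2.78% of all genes had one. Of the 91 members 19 had a positive difference, and the median was -0.020. The sign rested on the scale and on 1 library: 46 differences were positive with library totals, 83 on either TPM scale and 60 without WT replicate 1. In batch 2 there were again 0 members called by either tool (0.00545% of all genes in edgeR), yet 33 members, 36.3%, had an unadjusted p under 0.05 by both tools, against 8.34% of all genes. All 33 were in the direction of a higher level in HET kidneys, 85 of 91 members lay above the median of all genes, and the median log2 difference was 0.10 against 0.0012 for all genes. With 1 library left out in turn, the members at that p numbered from 14 (without HET replicate 11 or WT replicate 8) to 46 (without HET replicate 7). With library totals in place of TMM scaling the median of all genes stood at -0.13, 28 members had a positive difference, 86 lay above the median of all genes and 0 had an unadjusted p under 0.05. On either TPM scale only 9 differences were positive, so the raw sign turned for most members. By pseudocount (0.1 or 1), the median of all genes stood at -0.14 or -0.11, and 84 or 79 members lay above it. On both, 3 members had an unadjusted p under 0.05 in limma, against 3558 or 3624 of all 18339 genes.

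By complex, the median log2 difference in batch 2 was 0.099 in complex I, 0.048 in complex II, 0.094 in complex III, 0.10 in complex IV and 0.13 in complex V. The members with an unadjusted p under 0.05 numbered 15, 0, 3, 6 and 9 in that order. Ndufb11, an accessory subunit of complex I, ran from 76.1 through a median of 78.5 to 88.1 CPM in HET kidneys of batch 2, and was 68.9, 69.7, 69.8, 70.2 and 77.1 CPM in WT kidneys. The groups overlapped through WT replicate 11 alone, the library at the top for most members. The Ndufb11 difference was 0.16 (SE 0.046, unadjusted p = 0.00249, adjusted p = 0.539 in edgeR), or 11.8% higher in HET. Atp5l, subunit g of the synthase, ran from 150.5 through 170.2 to 180.2 CPM in HET kidneys and was 143, 147, 148, 149.8 and 156 CPM in WT kidneys, a difference of 0.15 (SE 0.049, adjusted p = 0.548 in edgeR). Cox4i1 ran from 336 through 358 to 381 CPM in HET kidneys and was 312, 319, 322, 335 and 342 CPM in WT kidneys, so that of the WT libraries replicate 11 alone lay within the HET range. The Cox4i1 difference was 0.12 (SE 0.044, adjusted p = 0.579 in edgeR). In complex III the hinge protein gene Uqcrh differed by 0.15 (SE 0.069, adjusted p = 0.594 in edgeR). Sdhc, at 0.070 (SE 0.043, adjusted p = 0.653 in edgeR), was the complex II gene of smallest p.

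Other genes stood on the same side in batch 2. All 13 mitochondrially encoded subunits lay above the median of all genes, with a median log2 difference of 0.23. Mitochondrial ribosomal protein genes had a median of 0.063 (70 of 78 above), and cytosolic ribosomal protein genes 0.085 (84 of 88 above). Among cell markers, the thick limb and distal tubule genes had a median of 0.15 (8 of 9 above), with a summed level of 7049 to 8269 CPM in HET and 6460 to 7402 CPM in WT kidneys. Erythrocyte genes had 0.51 (5 of 5 above), and adipose genes -0.75 (0 of 7 above). None of these lists held a gene that passed the test, and their part in the difference of the respiratory chain genes was not tested.

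The difference between the batches was tested as an interaction of genotype with batch. It called 0 members in edgeR and 0 in DESeq2 (0.0% of all genes in edgeR). There were 26 members, 28.6%, with an unadjusted p under 0.05 in edgeR and 25 in DESeq2, against 8.2% of all genes in edgeR, and 89 of 91 had a positive term with a median of 0.15. With library totals 31 terms were positive, the median of all genes stood at -0.15 and 0 members had an unadjusted p under 0.05, and on either TPM scale 2 terms were positive. The smallest adjusted p was 0.557, reached by the assembly factor Ndufaf4 at 0.30 (SE 0.11), by Ndufb8 at 0.17 (SE 0.066) and by the peripheral stalk gene Atp5pb at 0.21 (SE 0.083), in edgeR. Without the 3 doubted libraries 1 member had an unadjusted p under 0.05, against 6.8% of all genes, and the median was 0.088.

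**Figure D3:**
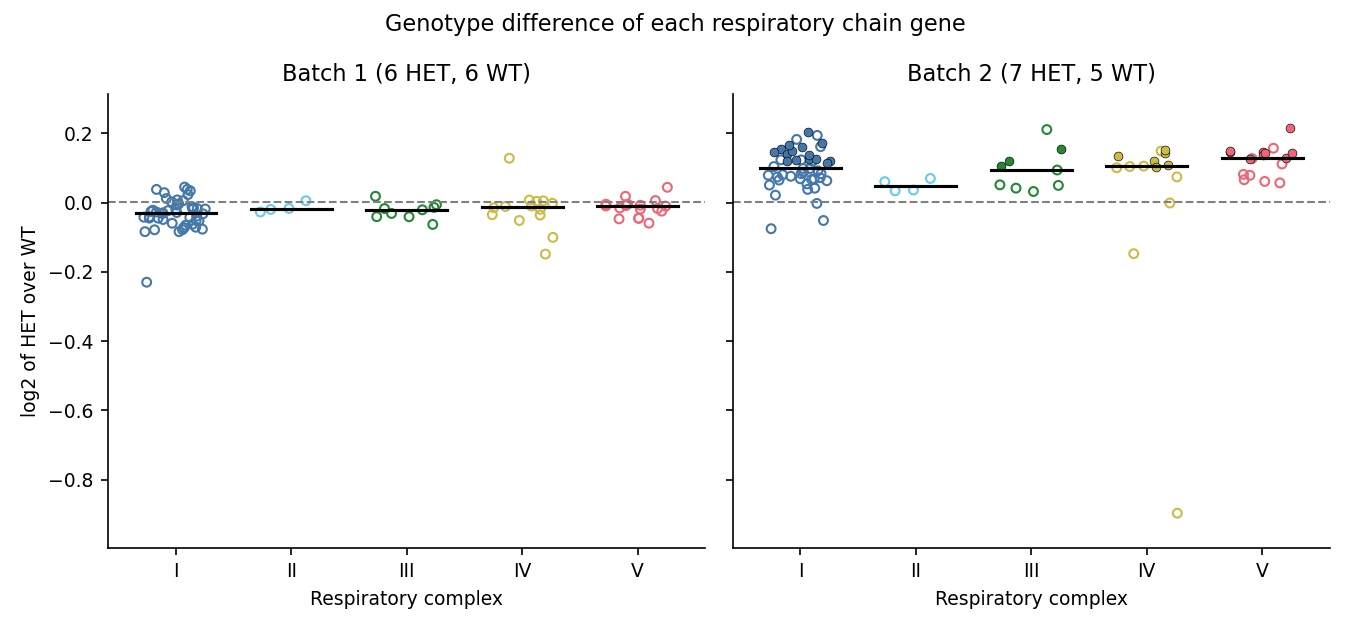
Log2 difference of HET over WT for each respiratory chain gene by complex in batch 1 (6 HET, 6 WT) and batch 2 (7 HET, 5 WT). Bars are medians, filled points have an unadjusted p under 0.05, and the dashed line is the median of all genes. The batch 1 points centre near -0.020 and the batch 2 points near 0.10, with Cox8b lowest in batch 2.

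Between the batches, the respiratory chain genes moved in both directions. Of 91 members 26 were higher in batch 2 (32.6% of all genes) and 40 were lower (30.9% of all genes), by edgeR's quasi-likelihood test with genotype as a covariate at an adjusted p under 0.05. In complex I 13 rose and 18 fell, in complex II 4 rose and 0 fell, in complex III 3 rose and 5 fell, in complex IV 1 rose and 9 fell, and in complex V 5 rose and 8 fell. Complex II was the only complex of the 5 with every gene called on one side. All 18 genes of the citric acid cycle also rose. With library totals in place of TMM scaling the split was 12 higher and 53 lower of 91 members. Of all 18339 genes tested 2295 were then called higher and 7711 lower, and the median of all genes stood at -0.11. Of the 4 complex II genes 2 were still called higher on that scale, 0 were called lower, and all 4 lay above the median of all genes.

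Atp5g2 (chromosome 15, 102662864 to 102672352, GRCm38) moved most. It lay at 18.02 to 38.7 CPM in the 12 libraries of batch 1 and at 2.21 to 4.51 CPM in those of batch 2, so that the batches did not overlap. Atp5g2 fell by 2.97 on the log2 scale (SE 0.13, adjusted p = 5.66e-16 in edgeR), and Atp5g3 exceeded it 14.5-fold in batch 1 and 113-fold in batch 2. Ndufb4, an accessory subunit of complex I, had 55.7 to 78.5 CPM in batch 1 and 22.6 to 31.2 CPM in batch 2, a log2 change of -1.17 (SE 0.056, adjusted p = 9.35e-17 in edgeR). Its copy Ndufb4c, annotated as a processed pseudogene, went the other way, from 39.9 to 54.5 CPM in batch 1 to 63.6 to 81.3 CPM in batch 2, a log2 change of 0.58 (SE 0.044, adjusted p = 8.41e-13 in edgeR). The sources used here do not say how the counting divided reads between these 2 copies, so the value of each is uncertain. The lowest and highest counts of Atp5g2 (75.58 and 1265.61) and of Cox7c (4274.58 and 8742.62) were not whole either. How their reads were divided is not said, so their values carry a like uncertainty.

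The genes of highest significance in the other complexes were as follows. In complex II, Sdhc rose by 0.27 (SE 0.029, adjusted p = 1.35e-09 in edgeR) and Sdha by 0.27 (SE 0.035). In complex III, Uqcrc2 rose by 0.39 (SE 0.034) and Uqcrq, a small subunit, fell by 0.49 (SE 0.043). Cox7c fell by 0.64 (SE 0.051) and Cox6c by 0.51 (SE 0.051), both small subunits of complex IV, while Cox7a2l, a factor that joins complexes III and IV, was the single complex IV gene that rose, by 0.24 (SE 0.030). In complex V, Atp5a1 rose by 0.31 (SE 0.032) and Atp5e, the epsilon subunit of the F1 part, fell by 0.59 (SE 0.045). Members with an annotated exonic length under 1000 bases included 2 that rose and 12 that fell, those of 1000 to 2000 bases 9 and 19, and longer ones 15 and 9. All genes tested had a median of -0.31 in the shortest class against 0.012 and 0.038 in the other classes. The batch label is all the labels give, so what the batches differ in was not tested.

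**Figure D4:**
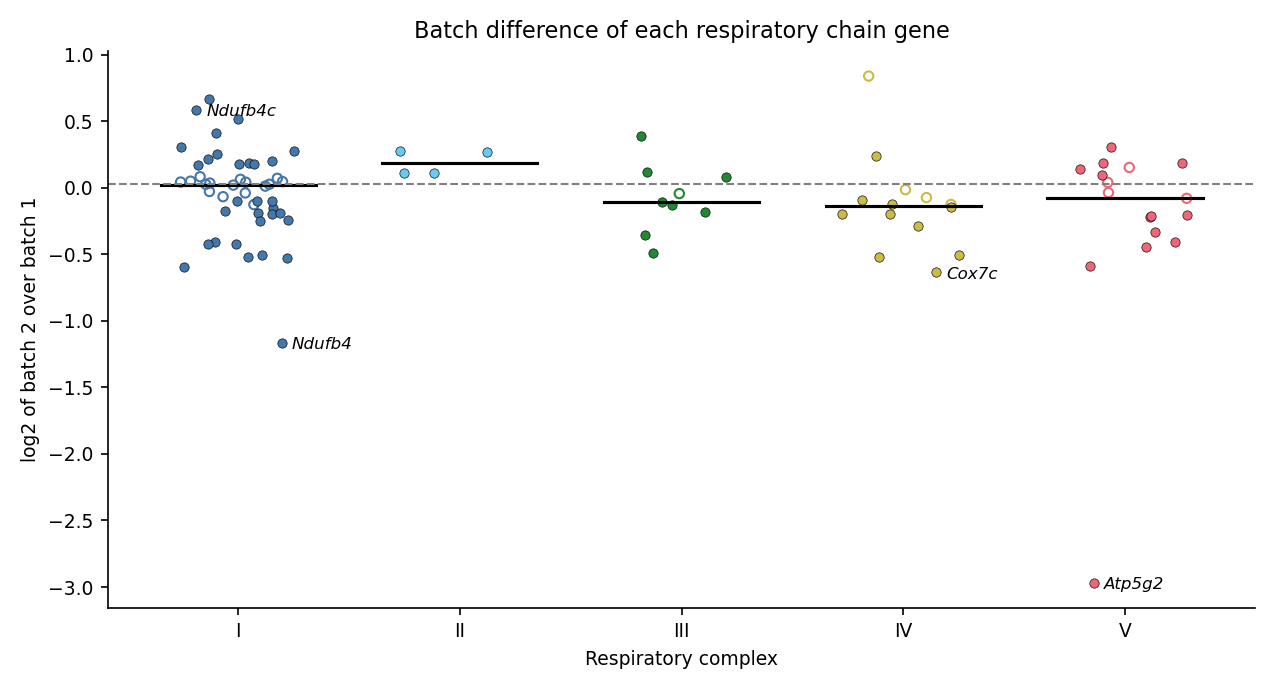
Log2 difference of batch 2 over batch 1 for each respiratory chain gene by complex; filled points have an adjusted p under 0.05, bars are medians and the dashed line is the median of all genes. Complex II lies wholly above the line, while Ndufb4 at -1.17 and Atp5g2 at -2.97 lie lowest.

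Kidneys with more Havcr1, which encodes the proximal tubule injury marker KIM-1, had lower levels of most respiratory chain genes relative to the other genes of the table. Havcr1 ran from 19.6 through a median of 27.4 to 54.3 CPM in HET and from 19.1 through 26.4 to 40.7 CPM in WT kidneys of batch 1. In batch 2 Havcr1 ran from 26.03 through 38.1 to 64.7 CPM in HET kidneys and was 27.5, 27.6, 41.4, 50.4 and 85.8 CPM in WT kidneys. With batch and genotype in the model, 6 members were lower with higher Havcr1 (edgeR quasi-likelihood test, adjusted p under 0.05), 6.59% of members against 0.453% of all genes. There were 54 members, 59.3%, with an unadjusted p under 0.05, against 15.3% of all genes, and 88 of 91 had a negative slope. The median slope was -0.089 log2 units per doubling of Havcr1, against -0.013 for all genes. With library totals in place of TMM scaling 30 slopes were positive, the median of all genes stood at 0.067, and the same number, 88, lay below it. On log2(TPM + 1) 53 slopes were positive, the median slope of the members was 0.0042, and 83 members lay below the median of all genes. The relation is an association across kidneys of both genotypes and is not a response to a treatment.

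The Rieske protein gene Uqcrfs1 had the smallest p. Uqcrfs1 ran from 187 through 199 to 213 CPM in HET and from 189 through 201 to 220 CPM in WT kidneys of batch 1. In batch 2 it ran from 176 through 188 to 203 CPM in HET kidneys and was 164, 176, 180, 184 and 200 CPM in WT kidneys. WT replicate 9, with the most Havcr1 of all libraries, had the least Uqcrfs1 of all. The slope was -0.12 (SE 0.028, adjusted p = 0.0282 in edgeR), or 7.73% less Uqcrfs1 per doubling of Havcr1. Sdha ran from 543 through 589 to 605 CPM in HET and from 545 through 586 to 651 CPM in WT kidneys of batch 1. In batch 2 Sdha ran from 672 through 718 to 777 CPM in HET kidneys and was 652, 655, 692, 707 and 732 CPM in WT kidneys, with its lowest WT value again in WT replicate 9. The Sdha slope was -0.11 (SE 0.027, adjusted p = 0.0323 in edgeR), or 7.17% less per doubling. In batch 1 HET replicate 1 and WT replicate 4, the libraries of most Havcr1 in their groups, had the least Sdha. Among HET kidneys of batch 2 the extremes did not coincide. HET replicate 13 had the most Havcr1, HET replicate 8 the least Sdha and HET replicate 7 the least Uqcrfs1.

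In complex I the accessory subunit gene Ndufa10 had a slope of -0.12 (SE 0.033, adjusted p = 0.0447 in edgeR) and the core gene Ndufs3 one of -0.11 (SE 0.029, adjusted p = 0.0453). Ndufa10 was lowest in HET replicate 1 at 125 CPM and in WT replicate 4 at 125 CPM within batch 1, and in WT replicate 9 at 154 CPM within batch 2. HET replicate 9, at 207 CPM, had the most Ndufa10 of all libraries. Ndufs3 covered 89.5 to 109 CPM in batch 1 and 94.2 to 115 CPM in batch 2. The core protein gene Uqcrc2 had a slope of -0.10 (SE 0.028, adjusted p = 0.0495 in edgeR) and covered 207 to 241 CPM in batch 1 and 273 to 331 CPM in batch 2. The beta subunit gene Atp5b had a slope of -0.096 (SE 0.026, adjusted p = 0.0495 in edgeR) and covered 1510 to 1736 CPM and 1699 to 1979 CPM. Ndufs3 shares 88 bases of exon with Kbtbd4 on the opposite strand, and Uqcrc2 shares 504 bases of exon with Pdzd9. The strand setting of the counting was not stated, so reads of these neighbours cannot be told apart. In complex IV no gene passed the test; Cox4i1 had the smallest p, with a slope of -0.091 (SE 0.028, adjusted p = 0.0817 in edgeR).

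**Figure D5:**
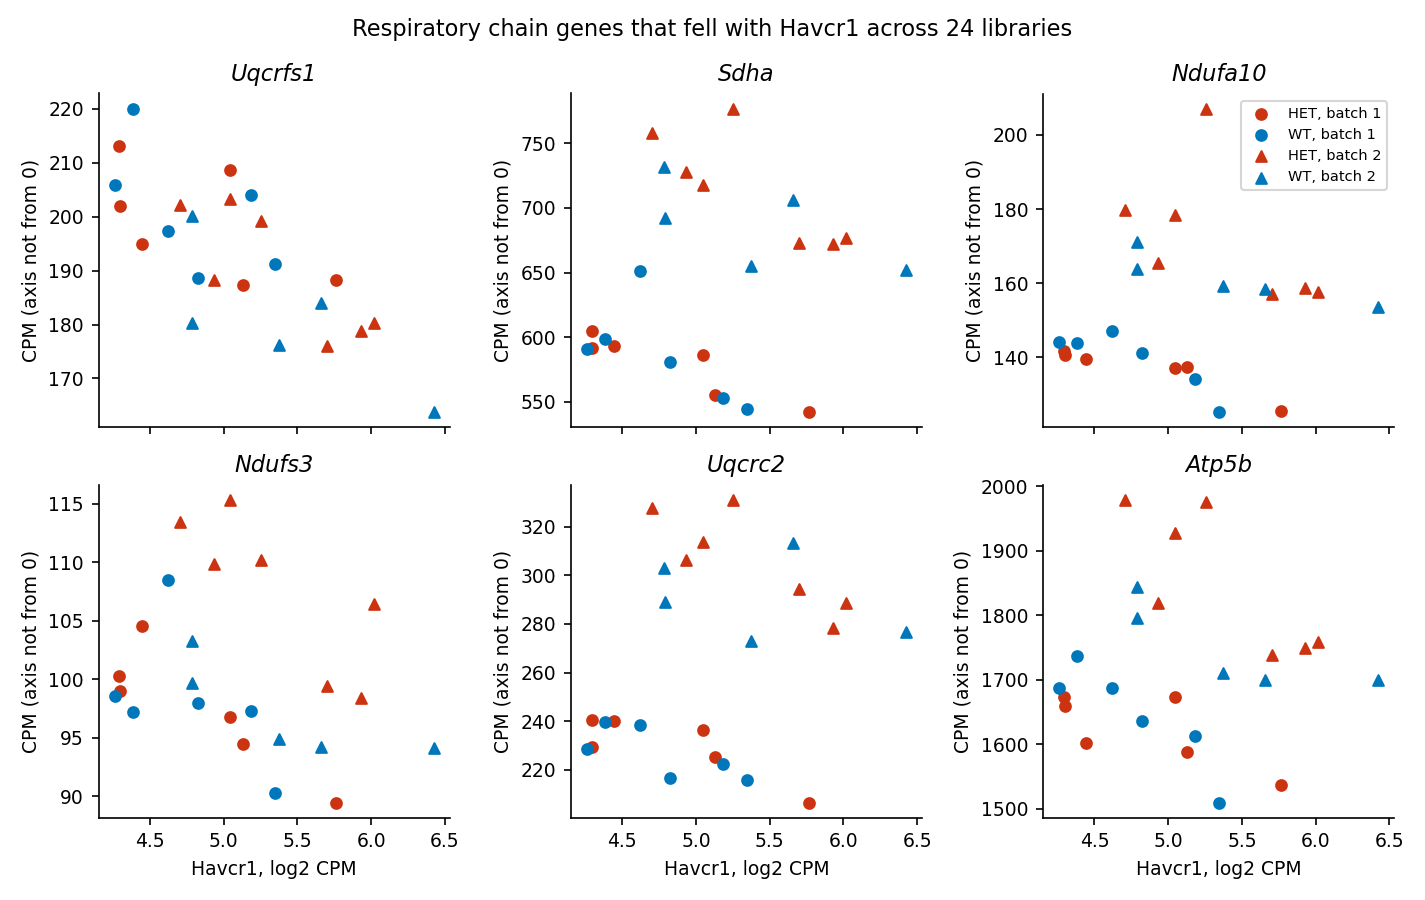
CPM of the 6 respiratory chain genes that passed the test against Havcr1 in log2 CPM, 1 point per library, circles for batch 1 and triangles for batch 2, HET in red and WT in blue. Within each batch the points with most Havcr1 mostly lie low; the CPM axes do not start at 0.

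The members with an unadjusted p under 0.05 numbered 22 of 47 in complex I, 4 of 4 in complex II, 7 of 9 in complex III, 9 of 14 in complex IV and 12 of 17 in complex V. The medians of the complexes were close: -0.083, -0.090, -0.10, -0.10 and -0.094. The Ndufaf assembly factors had a median of -0.040, against -0.085 for the core subunits of complex I. The 3 members with a positive slope, Ndufaf3 at 0.024 (SE 0.048), Ndufa4l2 at 0.0061 (SE 0.12) and Cox6b2 at 0.14 (SE 0.12), were among the lower expressed ones. The other mitochondrial lists had lower levels with higher Havcr1 as well. All 13 mitochondrially encoded subunits lay below the median of all genes, with a median of -0.18 and 0 called. All 18 citric acid cycle genes lay below it, and Idh3g passed the test at -0.11 (SE 0.027, adjusted p = 0.0234 in edgeR). Mitochondrial ribosomal protein genes had a median of -0.054, while cytosolic ribosomal protein genes had -0.016 with 37 of 88 above the median of all genes.

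Cell markers moved along with the slope on Havcr1. Of 12 tubular injury genes 6 rose, among them Spp1 at 0.60 (SE 0.034). That list holds Havcr1 itself, whose rise with its own level was fixed in advance. Of 10 leukocyte genes 6 rose, including Cd68 at 0.42 (SE 0.084), and of 10 fibroblast and matrix genes 4 rose, including Col3a1 at 0.38 (SE 0.071). The share of all genes called higher with Havcr1 is not given here, so the counts of markers that rose stand without a background. Of 15 proximal tubule genes 1 rose, Slc13a1 at 0.14 (SE 0.035), and 1 fell, Miox at -0.17 (SE 0.041), while 13 of the 15 lay below the median of all genes. Of 9 thick limb and distal tubule genes 2 fell, Egf at -0.17 (SE 0.045) and Cldn10 at -0.11 (SE 0.029). Tubular injury genes summed to 1134 to 1951 CPM in HET and 1068 to 1777 CPM in WT kidneys of batch 1, and to 1442 to 2215 and 1389 to 2530 CPM in batch 2. Leukocyte genes summed to 117 to 223 CPM over all libraries. The share of cell types in the slopes of the respiratory chain genes was not tested.

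The 6 calls rested on few kidneys. When each of the 24 libraries was left out in turn, between 0 and 9 members were called. There were 0 without HET replicate 1, 3 or 12, or without WT replicate 4, 5, 6, 9 or 11, and 1 to 3 without any of 13 others. Uqcrfs1 was called in 15 of the 24 fits, Sdha in 12, Ndufs3 in 5, Ndufa10 in 4, and Atp5b and Uqcrc2 in 3 each. No member was called in either batch alone, or without WT replicate 9 and HET replicate 13, the libraries farthest from the median of Havcr1. DESeq2 called 18, with 1.65% of all genes called lower. Without the 3 libraries of doubted Nbl1 level 2 were called, with 0.224% of all genes called lower. The 54 members with an unadjusted p under 0.05 became 25 (without HET replicate 1) to 61 (without WT replicate 7) when 1 library was left out, 18 in batch 1 alone and 10 in batch 2 alone. They became 0 with library totals and 1 on either TPM scale. The direction was steadier: 83 to 89 members lay below the median of all genes in every fit made. Members moved together across libraries and most fits reused the same kidneys, so these counts are not independent observations. The same holds for the other counts of members above or below that median.

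Respiratory chain genes were higher in kidneys with more Ppargc1a, whose product PGC-1alpha coactivates the factors named at the outset. Ppargc1a ran from 93.2 through 98.8 to 107 CPM in HET and from 87.1 through 98.1 to 106 CPM in WT kidneys of batch 1, a narrow range. In batch 2 Ppargc1a ran from 73.0 through 79.5 to 103 CPM in HET kidneys and was 70.7, 72.0, 78.6, 83.5 and 92.0 CPM in WT kidneys. With batch and genotype in the model, 1 member passed the test (edgeR quasi-likelihood test), 1.1% of members against 0.0164% of all genes called higher. There were 53 members, 58.2%, with an unadjusted p under 0.05, against 12.1% of all genes, and 89 of 91 slopes were positive. The median slope was 0.39 log2 units per doubling of Ppargc1a, against 0.021 for all genes. With library totals 81 slopes were positive and the median of all genes stood at -0.15. On the TPM scales 43 were positive, the median of all genes stood at -0.25 or -0.34 by pseudocount (1 or 0.1), and 83 or 88 members lay above it. By complex the medians were 0.38 in complex I, 0.27 in complex II, 0.29 in complex III, 0.52 in complex IV and 0.42 in complex V.

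The member that passed was Ndufa12, an accessory subunit at the peripheral arm of complex I. Ndufa12 ran from 70.0 through 73.7 to 88.0 CPM in HET and from 68.8 through 74.4 to 92.2 CPM in WT kidneys of batch 1. In batch 2 Ndufa12 ran from 72.7 through 81.2 to 115 CPM in HET kidneys and was 67.7, 70.4, 72.6, 73.3 and 83.3 CPM in WT kidneys. The highest library of each of the first 3 groups, HET replicate 2, WT replicate 1 and HET replicate 9, was also the one with the most Ppargc1a in its group. Each of these libraries also had the highest mitochondrially encoded share of counts in its group, whose part in the slope was not tested. The slope was 1.01 (SE 0.18, adjusted p = 0.0289 in edgeR), or 2.01 times as much Ndufa12 per doubling of Ppargc1a. The lowest and highest counts of Ndufa12 (2239.8 and 4435.6) were not whole, and how its reads were divided is not said. The next genes did not pass: Ndufv3 had 0.60 (SE 0.13, adjusted p = 0.0958) and Ndufb10 had 0.67 (SE 0.15, adjusted p = 0.11), both in edgeR. In the other complexes the genes of smallest p were Sdha at 0.36 (SE 0.13), Uqcrh at 0.60 (SE 0.17), Cox5a at 0.52 (SE 0.14) and Atp5o at 0.59 (SE 0.15), with adjusted p of 0.25, 0.158, 0.15 and 0.131 in edgeR.

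Ndufa12 was called in 17 of 24 fits that each left out 1 library, and 0 members were called without HET replicate 2, 6, 8 or 9 or without WT replicate 1, 9 or 11. Without WT replicate 7, which had the most Ppargc1a among WT kidneys of batch 2, 23 members were called, with 1.34% of all genes called higher. DESeq2 called 15, with 1.06% of all genes called higher. No member was called in either batch alone or without the 3 libraries of doubted Nbl1 level. Beside this slope, the markers of leukocytes had a median of -1.07 (1 of 10 above the median of all genes), those of fibroblasts -0.80 (0 of 10), and those of tubular injury -0.67 (0 of 12), and none passed the test. Markers of the thick limb and distal tubule had 0.41 (9 of 9 above). Their part in the slope was not tested.

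The level of Nbl1 itself was also used in place of the label. With batch and genotype in the model 0 members passed in edgeR and 0 in DESeq2 (0.0109% of all genes in edgeR). There were 23 members, 25.3%, with an unadjusted p under 0.05 in edgeR and 24 in DESeq2, against 11.2% of all genes in edgeR. Without the 3 libraries of doubted Nbl1 level there were 6, 6.59%, against 11.3% of all genes. There were 1 in batch 1 alone and 4 in batch 2 alone, against 3.25% and 9.41% of all genes. The median slope over all libraries was -0.080 per doubling of Nbl1 against -0.014 for all genes, and 5 members had a positive slope. Ndufaf1, an assembly factor of complex I, had the smallest p, at -0.15 (SE 0.051, adjusted p = 0.323 in edgeR). On the deposited TPM, whose median gene rose by 0.14 per doubling of Nbl1 (pseudocount 1), limma called 17 members higher with Nbl1, 18.7% against 14.7% of all genes, and 56 of 91 members still lay below the median of all genes. Adipose markers had a median slope of 1.07 on Nbl1 (7 of 7 above the median of all genes), and their part was not tested.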

How the data were processed

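Kidney mRNA of 24 mice was sequenced. Reads were trimmed with fastp, aligned with STAR to GRCm38 (mm10) and counted with featureCounts, per the submitters' processing notes; the sources used here give neither versions nor a strand setting. The deposited values, per the labels, are counts, TPM and FPKM per gene for each library. The authors' deposited counts were handled here in the manner of estimated counts, since some were not whole (38 of the 91 genes had one that was more than 0.001 from whole), and were rounded. The authors' deposited TPM gave levels within a batch, and their FPKM gave only the lengths behind them.

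Counts were tested over the whole table with edgeR 4.0.16 in R 4.3.3 (filterByExpr with a minimum count of 10, 18339 genes, TMM, robust quasi-likelihood test). Adjustment was by Benjamini-Hochberg over all genes, with 0.05 as the threshold. All 91 members passed the filter. CPM are TMM-scaled. Slopes are per log2 CPM of the covariate (prior count 2). A covariate is itself measured in the same libraries. Alternatives were DESeq2 1.42.0, RLE, upper-quartile and library-total scaling, no filter, limma 3.58.1 on log2(TPM + 1) and log2(TPM + 0.1), each library left out, each batch alone, and the doubted or farthest libraries left out. Scripts were tested on simulated data. Of the table's IDs, 55141 matched the annotation with coordinates. The floor of 3 counts covers counting error only.

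The members and lists were chosen with earlier results of these data known. Genes were named by a rule: the 3 highest and the lowest of each complex, core subunits, isoform pairs, the 3 most and least variable, called members where few, and the members of smallest p per complex and direction, of which 1 or 2 are given by choice after the values were seen. Outside the rule, Kbtbd4 and Pdzd9 (neighbours) and Ndufb10 on Ppargc1a were named with their values known. Protein identities of isoforms were not analysed here.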

Additional observations from a re-analysis of the deposited data

Results flagged for a closer look

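Single libraries stood apart from the rest of their group in 9 of 92 sets of values tested (Dixon's ratio at the 95% level), where chance flags about 5% of groups. Of these, 3 concerned Ndufa12: HET replicate 2 at 88.0 CPM and WT replicate 1 at 92.2 CPM in batch 1, and HET replicate 9 at 115 CPM in batch 2, each above its group. Ndufb4 was high in the same batch 1 libraries, at 75.8 CPM in HET replicate 2 and 78.5 CPM in WT replicate 1. Ndufa10 was low in HET replicate 1 at 125 CPM. Ndufb11 was high in WT replicate 11 at 77.1 CPM. WT replicate 1 also had the most Cox7a1 of its group, 11.1 CPM, and the highest summed level of complex IV, 2632 CPM.

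Of the rows left out for a -ps symbol, 4 had a mean level above 1 TPM in data that the comparisons did not use: Ndufb1-ps at 78.8 TPM, Cox7c-ps1 at 2.22 TPM, Ndufs5-ps at 1.503 TPM and Ndufa12-ps at 1.25 TPM.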

How the results depend on the processing

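Of the counts and values that answer a comparison, 450 recomputed ones kept their size and 65 moved; for single genes 1929 kept direction and side of the threshold, 181 lost a call or threshold, 26 gained one and 29 turned. The cause was not tested. The count of members below the median of all genes in the batch 1 genotype comparison, 72, became 42 with log2(TPM + 1), 33 without the 3 doubted libraries, and 32 to 83 with 1 library left out. For the batch difference that count, 54, became 33 with log2(TPM + 1). Without Ndufaf genes and with Ndufa4 and Ndufa4l2 in complex IV, 8 complex I and 2 complex IV genes rose. By CPM per kilobase of exonic length the shares of complexes I to V were 31.1, 5.01, 13.5, 26.5 and 23.9% in batch 1 and 32.0, 5.85, 13.04, 23.5 and 25.6% in batch 2. Calls of the slope on Havcr1, 6, became 18 (DESeq2), 1 (upper quartile), 2 (without the doubted libraries) and 0 (library totals, no filter, both TPM forms, each batch alone, without the 2 farthest libraries), and 0 to 9 with 1 library left out. Calls of the slope on Ppargc1a, 1, became 15 (DESeq2) and 0 (library totals, both TPM forms, each batch alone, without the 2 farthest or the 3 doubted libraries), and 0 to 23 with 1 left out. Calls of the slope on Nbl1, 0, became 17 with either TPM form.

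Relative to the median of all genes, log2 values that turned sign were these. On Havcr1, Cox6b2 had -0.11 and Ndufa4l2 -0.21 in batch 1 alone; Ndufa4l2 had -0.097 and -0.055 and Ndufaf3 -0.00489 with the TPM forms, and Ndufa4l2 -0.022 to 0.060 with 1 library left out. On Ppargc1a, Cox6b2 had 0.32 in batch 1 alone, 0.047 without the 2 farthest and -0.51 to 0.13 with 1 left out; Cox8b had 0.18 in batch 2 alone, 0.13 without the 2 farthest, and -1.53 to 0.021 with 1 left out. For genotype in batch 1, Cox7a1 had 0.072 without the doubted libraries and -0.22 to 0.087 with 1 left out, and Sdhc -0.014 to 0.023 with 1 left out. On Nbl1, Ndufaf6 had -0.00485 in batch 2 alone and -0.013 without the doubted libraries.

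The scale decides raw signs: with library totals the median of all genes moved to -0.13 for genotype in batch 2 and -0.15 for the slope on Ppargc1a, and the members are given relative to it. No paired analysis was possible because replicate numbers follow accession order and pair no mice.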
